A study of Mus musculus with 6 samples.

Results

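The semaphorins, plexins and neuropilins comprised 29 of the 19505 genes measured, chosen by gene symbol alone: Sema3 to Sema7 genes, plexins of the A, B, C and D families, and neuropilins. They were 19 ligand genes and 10 receptor genes, the receptors being 9 plexins and the neuropilin Nrp2. Each of them had a single probe set named for it. Other genes of these families were not analysed here.

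The samples were 393P cells, a mouse lung adenocarcinoma line that some labels write as 9393P, carrying a stable transfection of AC9 (3 arrays) or of the empty VECTOR (3 arrays). Both groups were grown in RPMI with 10% fetal bovine serum, transfected with jetPRIME and kept under puromycin or G418. The sources used here do not give the drug of each group, whether the selected cells were a pool or a clone, or whether replicates were separate cultures. Effects of the drug or of line selection cannot be told apart from those of AC9, and the p-values reflect the variation among these 6 samples alone, possibly only technical variation. Each RNA sample was read on a Clariom S array from Affymetrix, and values are log2 intensities. AC9 is left unexpanded in the labels; in the reference gene table it is a synonym of Adcy9, an adenylyl cyclase that makes cAMP.

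Semaphorins are secreted or membrane-bound guidance cues, first studied in growing axons and later in vessels, immune cells and epithelial tumours. Most act through plexins, single-pass receptors whose cytoplasmic part switches off small GTPases of the Ras and Rap families and so loosens adhesion and the cytoskeleton. Class 3 semaphorins are secreted, and most of them need a neuropilin as the binding partner of the plexin. Neuropilins also bind vascular endothelial growth factors, so semaphorins and these growth factors meet at the same receptor.

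Adcy9 read 6.78, 6.60 and 6.82 on the AC9 arrays, against 6.12, 6.09 and 6.15 on the VECTOR arrays, higher by 0.61 (SE 0.10, limma adjusted p 0.00264). All 7 epithelial markers examined, Cdh1 and Krt8 among them, were above the bound for dim signals in at least 1 group. That bound, the 90th percentile of the negative control probe sets averaged over the arrays, was 6.06. All 4 lung lineage markers, all 6 endothelial and all 4 leukocyte markers measured lay under it in both groups, as did 3 of 4 fibroblast and 4 of 5 neuronal markers. The exceptions were Col1a1 and Snap25. Snap25 averaged 7.05 in AC9 and 6.63 in VECTOR (limma adjusted p 0.0140), and the mean of the 5 neuronal markers was 5.48 to 5.74 on AC9 arrays and 5.18 to 5.36 on VECTOR arrays. The part of that shift in the results below was not tested.

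The ligands that changed were all lower in AC9 cells, while Nrp2, the only neuropilin among the 29 genes, was higher. The other receptor that changed, the plexin Plxnb1, was lower. At a limma adjusted p of 0.05, adjusted over all genes, 7 of the 29 genes fell and 1 rose. The background was 9.29% of all genes lower, 8.26% higher and 17.6% called in either direction. For these genes the shares were 24.1% lower, 3.45% higher and 27.6% in either direction. Brighter genes were called more often: among the 10600 genes whose mean over the 6 arrays lay above the bound, 28.3% were called, and of the 22 semaphorin, plexin and neuropilin genes that bright, 7 were (31.8%). The median change was -0.157 over the 19 ligands and 0.043 over the 10 receptors, beside 0.016 over all genes. The groups did not overlap for 11 of the 29 genes (37.9%), beside a background of 35.1%. The share of genes called in either direction was thus close to the background at like brightness. By direction, 27.3% of the 22 bright family genes were lower and 4.55% higher. Among the 10600 bright genes 15% were lower and 13.3% higher. No set test was run, and the description below is of single genes.

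**Figure D1:**
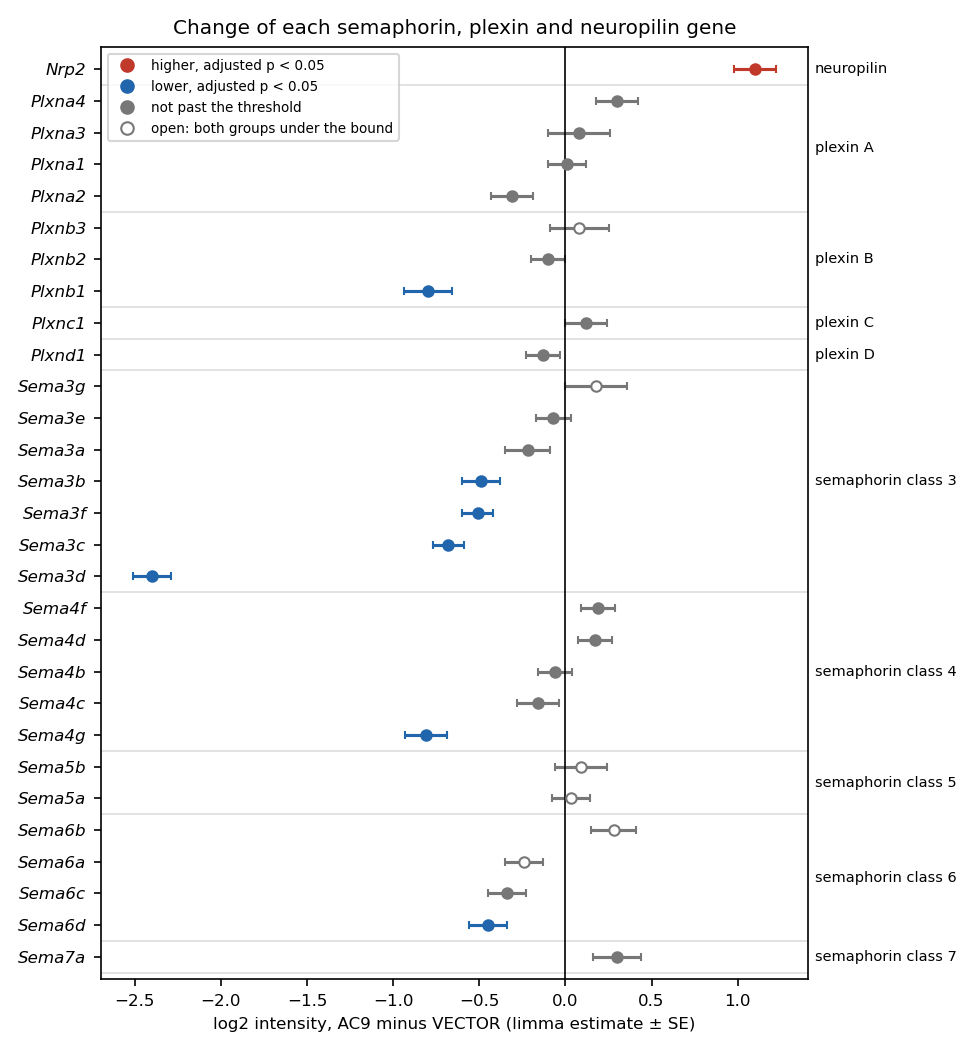
Change of each of the 29 genes in log2 intensity, AC9 minus VECTOR (points, limma estimate; bars, SE; 3 arrays each), ordered by family. Nrp2 lies at 1.10 on the right, Sema3d at -2.40 on the far left, and open points mark genes with both groups under the bound.

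Of the 7 class 3 genes, which encode secreted ligands, 4 fell (57.1%) and 0 rose. Over all genes 9.29% were lower and 8.26% higher. Sema3d, a guidance cue of axons, vessels and heart, read 5.31, 5.17 and 5.08 on the AC9 arrays, against 7.54, 7.75 and 7.47 on the VECTOR arrays. Every AC9 array lay under the bound of 6.06 and every VECTOR array well above it. Sema3d (probe set TC0500000080.mm.2) was therefore at least 2.82-fold lower in AC9, and the fitted log2 change was -2.40 (SE 0.11, limma adjusted p 5.02e-06).

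Sema3c, a cue of cardiac outflow and axon growth that is often produced by carcinomas, read 11.47, 11.45 and 11.47 in AC9, against 12.05, 12.18 and 12.19 in VECTOR. The 3 AC9 arrays were nearly identical (SD 0.01) and lay below all VECTOR arrays. The change was -0.68 (SE 0.09), or 1.60-fold lower, with a limma adjusted p of 0.00108. Sema3b and Sema3f are secreted ligands whose human counterparts lie in a region lost in many lung cancers. Sema3b read 7.71, 7.70 and 7.66 in AC9, against 8.02, 8.37 and 8.16 in VECTOR, a change of -0.49 (SE 0.11, limma adjusted p 0.0123). Sema3f read 7.37, 7.55 and 7.44 in AC9, against 8.01, 7.95 and 7.93 in VECTOR, a change of -0.51 (SE 0.09, limma adjusted p 0.00514). In both genes the groups were separate, with AC9 lower.

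The other class 3 genes did not pass. Sema3a, the founding repellent of the family, averaged 9.37 ± 0.16 in AC9 and 9.58 ± 0.19 in VECTOR (SD, n = 3 each), a change of -0.22 (limma adjusted p 0.293). Sema3e, which binds Plxnd1 without a neuropilin, averaged 10.36 ± 0.05 in AC9 and 10.44 ± 0.11 in VECTOR (SD, n = 3 each), a change of -0.07 (limma adjusted p 0.663). In both the groups overlapped. Sema3g lay under the bound in both groups, so no size is given for it.

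In the reference gene table the class 3 genes other than Sema3g sit in 2 groups of neighbours. Sema3d, Sema3a, Sema3e and Sema3c follow each other on chromosome 5, with 0 coding genes between Sema3d and Sema3a, 3 between Sema3a and Sema3e, and 15 between Sema3e and Sema3c. The changes along this order were -2.40, -0.22, -0.07 and -0.68, so the gene next to Sema3d did not share its fall. Sema3b and Sema3f lie on chromosome 9 with 3 coding genes between them and had nearly equal changes, -0.49 and -0.51. Of those 3, Gnai2, an inhibitory G protein subunit, averaged 10.95 in AC9 and 11.30 in VECTOR (-0.35, limma adjusted p 0.0242). Slc38a3 and Gnat1 lay under the bound in both groups, and Slc38a3 was called higher (limma adjusted p 0.0239). Between Sema3e and Sema3c, Cacna2d1 averaged 6.44 in AC9 and 6.84 in VECTOR (-0.40, limma adjusted p 0.0387). Speer4d, also there and under the bound in both groups, was called higher (limma adjusted p 0.00963).

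The 250 bases upstream of the annotated start are shown for Sema3d and Sema3c, the class 3 genes with the largest changes. They come from RefSeq promoter sequences of GRCm38.p6. Any entry for Sema6a was left out of the family's promoters, but not of all promoters in the table. The entries used covered 24 of the 29 genes and 6 of the 8 called. Since AC9 makes cAMP, the cAMP response element TGACGTCA and its shorter form TGACG (or CGTCA) were searched on both strands. The E-box CAGGTG (or CACCTG), to which repressors of the ZEB type bind, was searched as well. Any TGACGTCA also counts as a match to TGACG. Capitals mark the matches.
Sema3d, chr5:12382916-12383165, + strand: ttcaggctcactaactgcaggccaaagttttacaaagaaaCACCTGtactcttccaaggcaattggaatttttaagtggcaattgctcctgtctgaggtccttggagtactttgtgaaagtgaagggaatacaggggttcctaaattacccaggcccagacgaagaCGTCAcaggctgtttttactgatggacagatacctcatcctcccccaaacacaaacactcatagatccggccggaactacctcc
Sema3c, chr5:17574566-17574815, + strand: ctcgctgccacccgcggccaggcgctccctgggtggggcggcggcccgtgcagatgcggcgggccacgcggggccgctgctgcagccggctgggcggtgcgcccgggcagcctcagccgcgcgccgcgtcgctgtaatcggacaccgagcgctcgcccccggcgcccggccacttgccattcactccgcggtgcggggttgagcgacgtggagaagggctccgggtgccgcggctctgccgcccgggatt
The Sema3d window held CGTCA, with its first base at position -84 from the start, and CACCTG at position -210, while the Sema3c window held none of the motifs. The windows also differed in base composition, at 46.8% G and C in Sema3d and 78.4% in Sema3c, beside a median of 52.4% over all 32851 promoters in the table. Of all these promoters, 1.55% held TGACGTCA, 17.8% the shorter form and 17.2% the E-box. Among the 32 promoters of the 24 genes, 0 held TGACGTCA, 1 held the shorter form and 5 held the E-box. A match describes letters only, and no binding was measured.

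**Figure D2:**
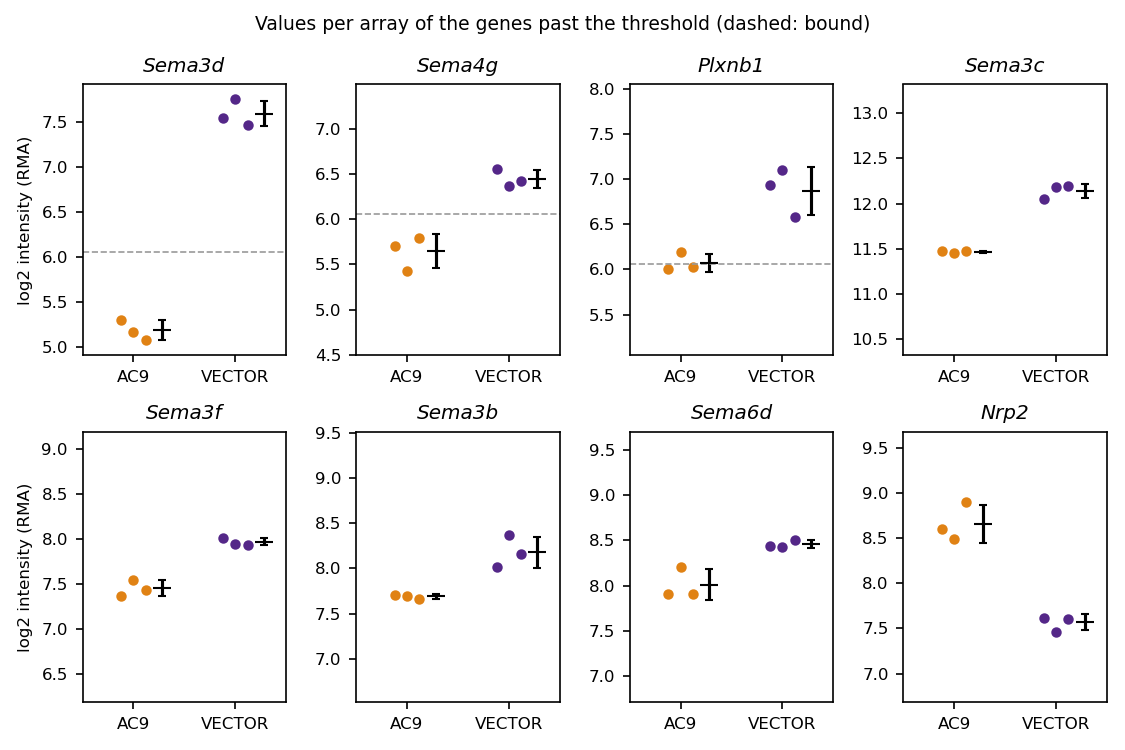
Log2 intensity on each array (points) for the 8 genes past the threshold, AC9 left and VECTOR right, with mean and SD beside them and every panel spanning 3 log2 units. The dashed line is the bound of 6.06; Sema3d and Sema4g lie under it on all AC9 arrays, and only Nrp2 is higher in AC9.

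Among the membrane-bound ligands, 1 of 5 class 4 genes, 0 of 2 class 5 genes, 1 of 4 class 6 genes and 0 of 1 class 7 genes passed. Each call was a fall, beside 9.29% of all genes lower. Sema4g, a class 4 ligand that signals through Plxnb2 in the mouse cerebellum, read 5.71, 5.43 and 5.79 in AC9, against 6.56, 6.37 and 6.43 in VECTOR. All AC9 arrays lay under the bound, so it was at least 1.28-fold lower (limma adjusted p 0.00176). Sema6d, a transmembrane ligand of Plxna1 known from heart development, read 7.91, 8.21 and 7.91 in AC9, against 8.44, 8.43 and 8.50 in VECTOR. The groups did not overlap, although AC9 replicate 2 came close to the VECTOR arrays. The change was -0.45 (SE 0.11, limma adjusted p 0.0200). The call did not hold without AC9 replicate 1 (adjusted p 0.0815), AC9 replicate 3 (0.0753), VECTOR replicate 1 (0.0522) or VECTOR replicate 3 (0.0563).

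Sema6c came nearest to the threshold from outside. It averaged 5.98 ± 0.13 in AC9, just under the bound, and 6.32 ± 0.16 in VECTOR (SD, n = 3 each; limma adjusted p 0.0719), with no overlap between the groups. It passed only when dim genes were left out of the test (adjusted p 0.0314). Sema7a, a GPI-anchored ligand of Plxnc1 and of integrins, read 7.01, 7.05 and 7.08 in AC9, against 7.02, 6.46 and 6.77 in VECTOR. Its 3 AC9 arrays lay close together, and VECTOR replicate 1 lay among them, so the difference of 0.30 did not pass (limma adjusted p 0.183). Sema4d, the ligand of Plxnb1 known from T cells and invasive tumours, averaged 7.25 in AC9 and 7.08 in VECTOR (0.17, adjusted p 0.303). Sema4f differed by 0.19, Sema4b by -0.06 and Sema4c by -0.16, with limma adjusted p-values of 0.245, 0.743 and 0.417. Sema5a, Sema5b, Sema6a and Sema6b lay under the bound in both groups, and 0 of them passed.

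Of the 10 receptors, 1 rose and 1 fell, beside 8.26% of all genes higher and 9.29% lower. Nrp2, the neuropilin that pairs with A-type plexins for Sema3f and with VEGF receptors for VEGF-C, read 8.60, 8.49 and 8.90 in AC9, against 7.62, 7.46 and 7.61 in VECTOR. The lowest AC9 array was well above the highest VECTOR array. Nrp2 (probe set TC0100000509.mm.2) was 2.14-fold higher, a log2 change of 1.10 (SE 0.12, limma adjusted p 0.000409). Plxnb1, the plexin of Sema4d, which associates with Met and Erbb2, read 6.0, 6.19 and 6.03 in AC9, against 6.94, 7.10 and 6.58 in VECTOR. The AC9 arrays gathered around the bound, and all 3 VECTOR arrays were above them. The change was -0.80 (SE 0.14), or 1.74-fold lower, with a limma adjusted p of 0.00413. Because the AC9 mean of 6.07 lay only just above the bound of 6.06, the fold may be too small.

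The upstream windows of these receptors are given because they changed in opposite directions.
Nrp2, chr1:62703067-62703316, + strand: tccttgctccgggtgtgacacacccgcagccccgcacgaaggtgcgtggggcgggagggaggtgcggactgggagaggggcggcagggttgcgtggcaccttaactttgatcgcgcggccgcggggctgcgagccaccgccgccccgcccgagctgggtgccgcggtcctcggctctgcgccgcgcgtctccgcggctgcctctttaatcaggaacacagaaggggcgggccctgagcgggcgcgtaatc
Plxnb1, chr9:109095186-109095435, + strand: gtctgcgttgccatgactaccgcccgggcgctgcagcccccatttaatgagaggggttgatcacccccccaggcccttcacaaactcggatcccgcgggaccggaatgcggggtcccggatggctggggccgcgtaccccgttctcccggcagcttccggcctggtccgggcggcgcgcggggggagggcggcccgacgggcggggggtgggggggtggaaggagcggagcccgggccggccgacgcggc
Neither window held any of the motifs searched, so there are no capitals in them. Both were rich in G and C, at 72.4% in Nrp2 and 75.2% in Plxnb1, beside 78.4% in the Sema3c window. A relation of base composition to the changes was not tested.

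The other 8 plexins did not pass. Plxnb2, a B-type plexin of epithelia and the receptor of Sema4c, averaged 9.44 ± 0.12 in AC9 and 9.54 ± 0.08 in VECTOR (SD, n = 3 each; change -0.10, limma adjusted p 0.580). Plxnd1, the receptor of Sema3e, averaged 8.25 ± 0.02 in AC9 and 8.38 ± 0.13 in VECTOR (change -0.13, limma adjusted p 0.445). Plxna1, a partner of neuropilins, averaged 8.67 ± 0.12 in AC9 and 8.66 ± 0.13 in VECTOR (change 0.01, SE 0.11, limma adjusted p 0.966). In each of these the groups overlapped.

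Plxna2 and Plxna4, both receptors of Sema6a, differed in opposite directions without overlap and without passing the test. Plxna2 averaged 6.93 in AC9 and 7.24 in VECTOR (-0.31, limma adjusted p 0.115), and Plxna4 averaged 6.41 in AC9 and 6.12 in VECTOR (0.30, limma adjusted p 0.121). Plxna3 differed by 0.08 with the widest VECTOR spread of the 29 genes (SD 0.38), and Plxnc1 by 0.12. Plxnb3 lay under the bound in both groups.

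Ligands and receptors were then set side by side for 16 pairs known to bind. Both genes passed in 3 pairs, all with Nrp2 as receptor, and in these the ligand fell while the receptor rose. Within each array, Nrp2 minus Sema3f was 1.22, 0.94 and 1.46 in AC9, against -0.39, -0.49 and -0.32 in VECTOR, a shift of 1.61. The shift was 1.59 for Sema3b and 1.77 for Sema3c, each of them separate between the groups. The 3 values share Nrp2 and are not independent of each other. Nrp2 was the only gene of the 29 called higher, so opposite calls in its pairs follow from the single-gene calls. Each gene was already separate between the groups, so the separation of these differences adds no further evidence. In the pair Sema4d and Plxnb1 the receptor fell and the ligand did not pass, and Plxnb1 minus Sema4d was -1.13, -1.13 and -1.28 in AC9, against -0.14, -0.09 and -0.39 in VECTOR. Sema4g fell while Plxnb2 did not pass, and Sema6d fell while Plxna1 did not. In 9 of the 16 pairs neither gene passed, including Sema3e with Plxnd1, Sema4c with Plxnb2 and Sema7a with Plxnc1. The receptor-minus-ligand values compare probe sets only through their change between groups, since brightness differs from probe set to probe set.

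**Figure D3:**
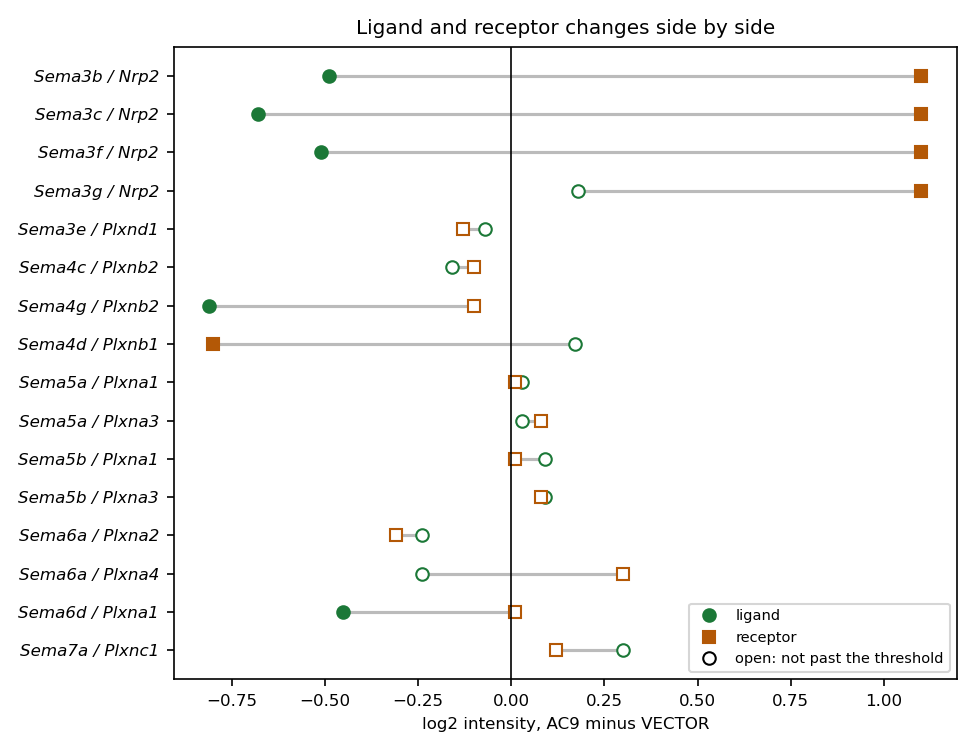
Change in log2 intensity, AC9 minus VECTOR, of the ligand (circle) and the receptor (square) in 16 ligand and receptor pairs; filled symbols passed a limma adjusted p of 0.05. The 3 pairs at the top have filled symbols on both sides of 0, with Nrp2 at 1.10.

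Genes that act with these receptors were taken from 4 lists. The background for each list's counts is 17.6% of all genes called, 9.29% lower and 8.26% higher. Among genes whose mean lay above the bound, 28.3% were called. No list was tested as a set. In the VEGF family, whose members share neuropilins with the semaphorins, 1 of 5 rose and 1 fell. Vegfa, the main vessel growth factor, read 11.28, 11.42 and 11.16 in AC9, against 10.84, 10.32 and 10.61 in VECTOR, a change of 0.70 (SE 0.14, limma adjusted p 0.00823). Pgf, placental growth factor, read 6.40, 6.37 and 6.38 in AC9, against 7.32, 7.37 and 7.49 in VECTOR, a change of -1.01 (SE 0.09, limma adjusted p 0.000131). Both were separate between the groups, and Vegfc, a VEGF that binds Nrp2, differed by only -0.04. The list's median change was -0.04, beside 0.016 over all genes.

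Among 14 partner receptors measured, 1 fell and 0 rose, with a median of -0.07. It was Erbb2, a receptor kinase that associates with Plxnb1, which averaged 8.49 ± 0.08 in AC9 and 9.01 ± 0.03 in VECTOR (SD, n = 3 each; change -0.52, limma adjusted p 0.00446). Met, another kinase known with Plxnb1, differed by -0.15, and 8 of the 14 lay under the bound in both groups, among them the VEGF receptor Kdr and the adhesion molecule L1cam.

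Of 29 effectors downstream of plexins, 6 fell and 1 rose, beside 9.29% of all genes lower and 8.26% higher. Their median change was 0.01. Dpysl2, the tubulin-binding protein CRMP2 that relays Sema3a signals, averaged 8.89 in AC9 and 9.73 in VECTOR (-0.84, SE 0.10, limma adjusted p 0.000507). Cdk5, a kinase that phosphorylates it, averaged 8.41 in AC9 and 9.06 in VECTOR (-0.65, limma adjusted p 0.00165). Both belong to the signalling chain downstream of Sema3a, whose own transcript did not pass. The oxidase Mical1 was at least 1.35-fold lower (limma adjusted p 0.0164), a call that did not hold without AC9 replicate 1 (adjusted p 0.0644). Mras, a Ras-type GTPase, averaged 9.59 in AC9 and 10.23 in VECTOR (-0.64, limma adjusted p 0.00218). The others called were Mical2 and Limk1, which fell, and Gsk3b, which rose by 0.29. Of the fits without 1 array, Limk1 kept its call only in that without AC9 replicate 2 (adjusted p 0.0574 to 0.103 without any other array). Gsk3b lost it without any single array (0.0747 to 0.130), with the replicate block (0.0867) and with repeated quantile normalization (0.0856). The count for this list was 4 without AC9 replicate 1.

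Of 7 proteases that cut semaphorins or release them from the membrane, 2 fell and 0 rose, with a median of -0.20. The sheddase Adam10 averaged 10.17 in AC9 and 10.88 in VECTOR (-0.72, SE 0.09, limma adjusted p 0.000722). Mmp14, which can shed Sema4d, averaged 9.23 in AC9 and 9.59 in VECTOR (-0.36, limma adjusted p 0.0204), a call that did not hold without AC9 replicate 1 (adjusted p 0.0748), AC9 replicate 2 (0.0732) or VECTOR replicate 1 (0.0549). Furin, which cleaves class 3 semaphorins, differed by -0.04.

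**Figure D4:**
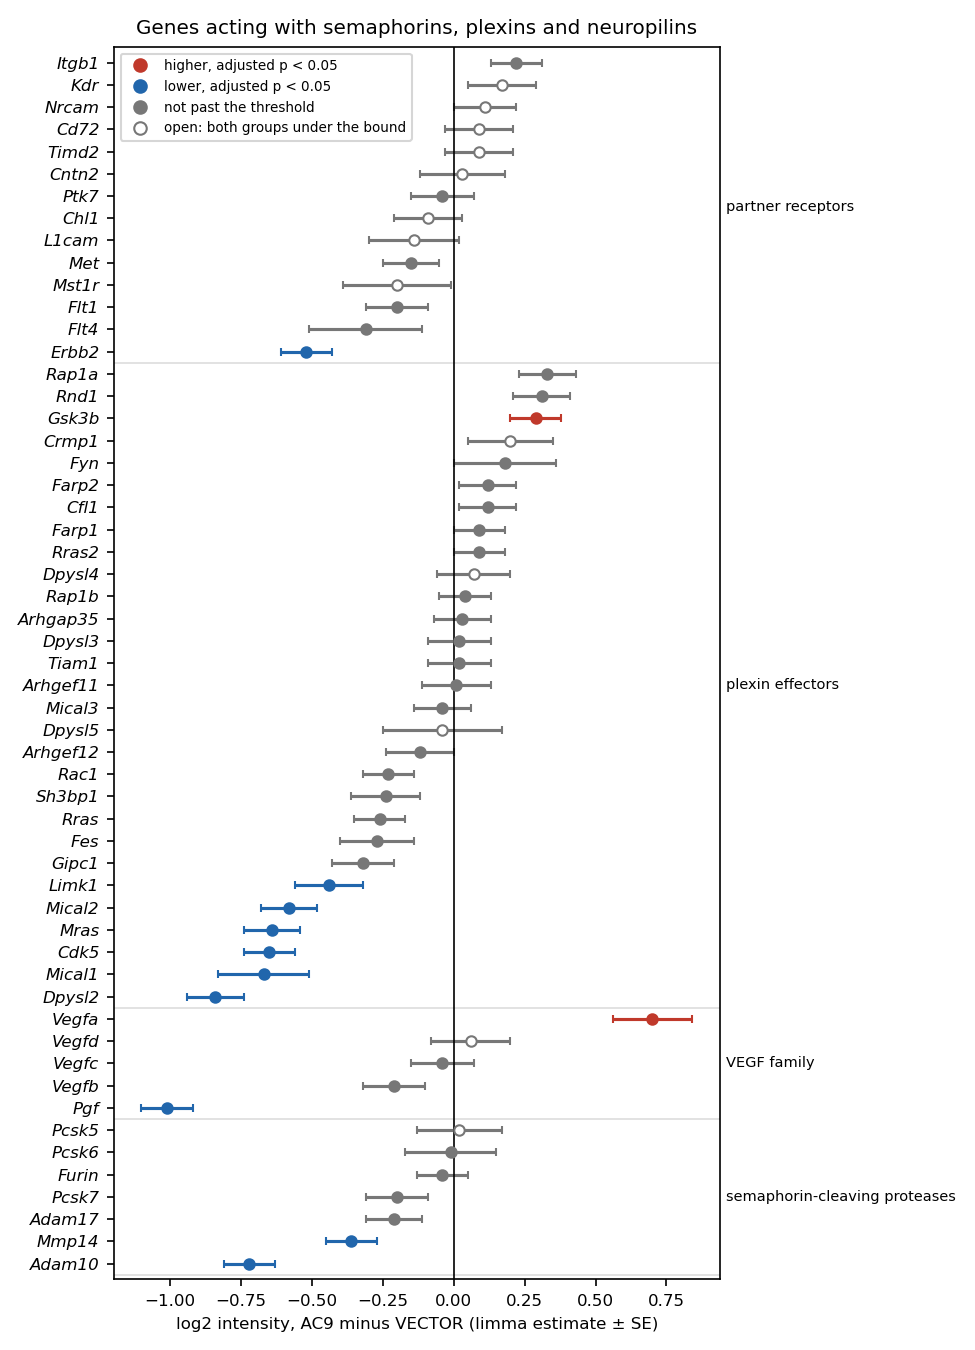
Change in log2 intensity, AC9 minus VECTOR (points, limma estimate; bars, SE; 3 arrays each), of the measured genes of 4 lists. Vegfa at 0.70 and Pgf at -1.01 mark the ends, and most plexin effectors lie near 0.

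The spread within groups was close to that of all genes. The family genes' median SD over 3 arrays was 0.11 in AC9 and 0.15 in VECTOR, beside 0.12 and 0.13 over all genes. Within VECTOR, replicate 3 was the highest array for 15 of the 29 genes and replicate 1 the lowest for 15. The median deviation from the group mean was 0.05 for replicate 3 and -0.09 for replicate 1, beside 0.01 and -0.01 over all genes.

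The control probe sets also differed between the groups, in directions that depended on the kind of control. Of 23 background probe sets, which match no transcript and are ordered by G and C content, 19 were lower in AC9 without overlap and 0 higher. The largest shift was -0.50, in the class with the most G and C, and the median shift was -0.056. The 90th percentile of the negative controls was instead higher in AC9, at 6.076 to 6.112, against 5.997 to 6.066 on the VECTOR arrays. The changes of Sema3b, Sema3f and Sema6d, -0.49, -0.51 and -0.45, were about as large as the largest background shift of -0.50. Those of Sema3d, Sema4g, Plxnb1 and Sema3c were larger. Nrp2 moved the other way. In the lists of genes acting with these receptors, the falls of Erbb2, Limk1 and Mmp14 (-0.52, -0.44 and -0.36) were about that size or smaller. The other called falls there were larger. Those of the neighbouring genes Gnai2 and Cacna2d1 (-0.35 and -0.40) were smaller. The base composition of these genes' probes was not analysed here, and the part of the background in these falls was not tested.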

How the data were processed

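Expression was measured in 6 samples, 3 AC9 and 3 VECTOR, on 1 array each. The deposited values were log2 intensities per probe set made by the authors with RMA, per the submitters' processing notes; the sources used here do not give the software, its version or the genome build. GEO's platform annotation gave 19572 of 22206 non-control probe sets 1 symbol, and 2634 are unnamed here. All 19572 matched a gene number of the GRCm38.p6 reference table, which changed 0 symbols. For 55 genes with several probe sets the one with the highest mean was used, which left 19505 genes; 0 columns were left unused.

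The difference AC9 minus VECTOR was fitted in limma 3.58.1 under R 4.3.3 (two-sided moderated test), without further normalization or filter, with Benjamini-Hochberg adjustment over all genes and a threshold of 0.05. The script was tested on simulated data. SE is that of the fit. With 1 group mean under the negative-control bound, only a lower limit of the fold is given, taken against each dim array's own bound or, if higher, its value. With both under it, no size is given. The arrays were alike, with r across genes of 0.9942 to 0.9960 within groups and 0.9852 to 0.9882 between them; their number limits the precision.

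Every family gene is accounted for. From each of the 4 lists, up to 4 genes past the threshold with the largest change were named; others were chosen after their values were seen, as were the ligand and receptor pairs and the motifs. The members and lists were chosen with earlier results of these data known. Alternatives were a trended robust prior, repeated quantile normalization, median centring, a test without the dimmest genes (below the 40th percentile of mean level), averaging probe sets per gene, weighting the arrays, a replicate block, dropping each array, an adjusted p of 0.01 and a bound at the 95th percentile.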

Additional observations from a re-analysis of the deposited data

Results flagged for a closer look

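In data outside the gene comparison, 19 of 23 background probe sets were lower in AC9 than in VECTOR without overlap, a signal in probe sets meant to match no transcript. The median shift over the 23 was -0.056. No cause was tested.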

How the results depend on the processing

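Of the 29 genes, 27 kept their side of the threshold and their direction where called under every alternative run. The exceptions were Sema6d, which lost its call without 4 of the single arrays, and Sema6c, called with dim genes left out. The number called was 7 to 8 on leaving out single arrays (1 higher, 6 to 7 lower), 9 with dim genes left out and 6 at an adjusted p of 0.01. The called genes not past 0.01 were Sema3b (limma adjusted p 0.0123) and Sema6d (0.0200). The number above the bound in at least 1 group was 23, and 19 at the 95th percentile of the negative controls. Over all genes, leaving out single arrays gave 2174 to 3025 calls (968 to 1491 higher, 1206 to 1534 lower). The lowest count, 2174, came without AC9 replicate 1. Partner receptors called were 2 with the trended robust prior. Plexin effectors called were 12 with that prior, 11 with dim genes left out and 4 to 7 without single arrays; proteases called were 1 to 2 without single arrays. Samples with the same replicate number showed no clear shared deviation from their group means, with correlations of 0.008, 0.081 and 0.008. Those of differently numbered samples ran from -0.092 to 0.088. Whether the samples were made in pairs cannot be told from these values. With the number as a replicate block, 8 of the 29 genes and 3062 of all genes were called. The cause of these differences was not tested.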
